A study of Homo sapiens with 18 samples.

Results

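Human embryonic stem cells of the line H1 (WA01), an established line grown in the defined medium E8, were sampled before and during treatment with 1 nM Wnt3a. The step described here runs from 24 h to 48 h of Wnt3a in the first WT series, and its members are all 10975 genes of that series' RPKM table, with no gene chosen or left out. RPKM is a read number scaled to the length of the transcript and to the mapped reads of the library, so levels can be set side by side between genes. The change of a gene is the log2 of (RPKM + 1) at 48 h over (RPKM + 1) at 24 h, and a gene is called raised at a value of 1 or more and lowered at -1 or less. One WT library stood on each side of the step, both from cells with intact SP5, so the changes carry no error and no p-value, and 497 of the genes could be set beside the same step in a second WT series. No read counts were given, so the depth behind each RPKM is unknown. The 0 h cells received buffer in place of Wnt3a, the series holds 16 RNA libraries and 2 SP5 ChIP samples in all, and the same step was also sampled in WT Rep. 2 and in dZF1 and dZF2, which are each a single clone with deletions in both SP5 alleles.

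Wnt3a is a secreted ligand that binds Frizzled and LRP receptors and stabilises β-catenin, which then works with TCF and LEF factors on target genes. In the embryo WNT acts together with NODAL, a ligand of the TGF-β family, to form the primitive streak, from which definitive endoderm and mesoderm arise. Streak genes such as MIXL1 and T are known for a short burst of expression, and endoderm genes such as SOX17 follow them. Cells in bulk RNA are measured together, so a higher level from more cells of a type and a higher level per cell cannot be told apart at any gene below.

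Between 24 h and 48 h, 254 genes were raised and 181 were lowered, which is 2.31% and 1.65% of all listed genes. In the 12 h before, from 12 h to 24 h, 171 genes were raised and 85 lowered, or 1.56% and 0.774%, and this earlier step shares the 24 h library with the later one and is 12 h shorter. The median log2 change over all genes from 24 h to 48 h was 0 and the median absolute change 0.21, against 0.17 from 12 h to 24 h, and 83.7% of genes changed by less than 0.5. Of the raised genes 64 changed at least 4-fold and 22 at least 8-fold, against 25 and 3 of the lowered genes. The raised genes started low: their median RPKM was 3.25, 3.4, 2.85 and 10.75 at 0, 12, 24 and 48 h, and 239 of 254 had their highest level at 48 h. The lowered genes had medians of 6.2, 5.7, 7.5 and 2.3 RPKM at those times, and 99 of 181 had their highest level at 24 h. These medians and peak times are partly built in. By the call, no raised gene can peak at 24 h and no lowered gene at 48 h. The table also lists only genes that reach 4 RPKM at some time, so a gene lower than that through 24 h is listed only through its 48 h level. Low levels weigh on the counts of raised and lowered genes, since 116 raised and 114 lowered genes stayed under 10 RPKM in both libraries. With only genes of at least 10 RPKM in 1 of the libraries the counts were 138 and 67, and with a pseudocount of 5 in place of 1 they were 99 and 38. Rounding to 1 decimal could undo some calls, and 236 raised and 165 lowered genes stayed called at any value the rounding allows.

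The raised genes were sorted by their 24 h level against 0 h. A late rise, with 24 h still within 2-fold of 0 h, was seen in 201 of them, a continuing rise in 28 that were already at least 2-fold up at 24 h, and a recovery in 25 that had first gone down at least 2-fold. Among the lowered genes 37 were transient (at least 2-fold above 0 h at 24 h, then down), 133 were late falls and 11 were declining from before. At 48 h, 98 of the 181 lowered genes were at least 2-fold below 0 h.

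**Figure D1:**
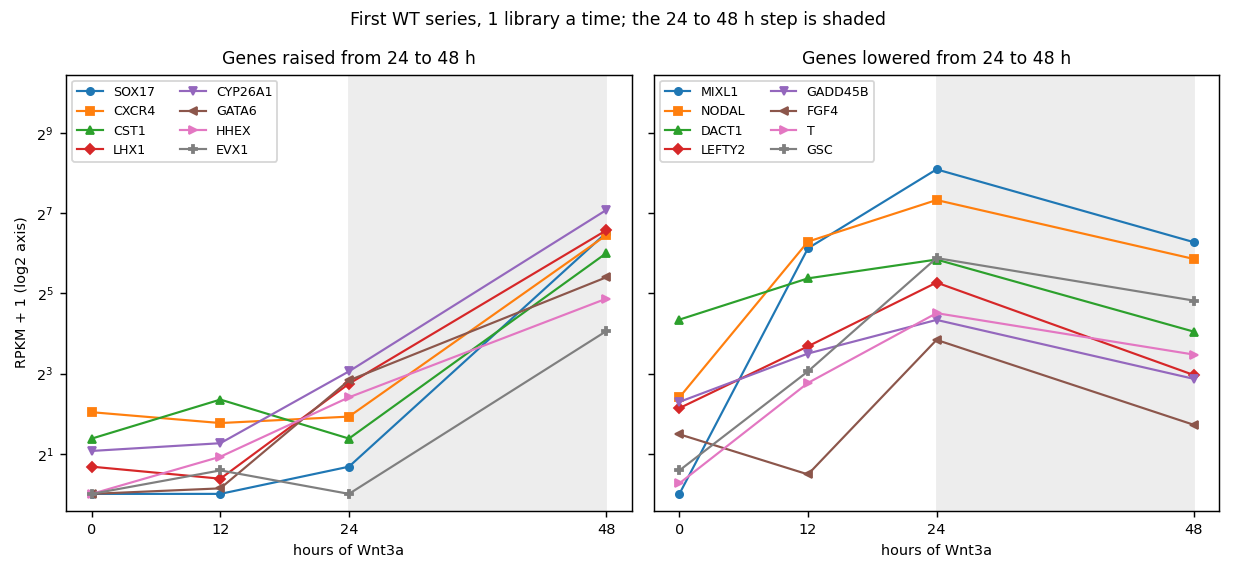
RPKM + 1 on a log2 axis against hours of Wnt3a in the first WT series, 1 library a time, for 8 raised genes (left) and 8 lowered genes (right), with the step from 24 to 48 h shaded. SOX17 goes from 0.6 to 89.6 RPKM within the shaded step, while MIXL1 goes from 271.1 to 76.4 RPKM.

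The largest rise of any gene was that of SOX17, the HMG-box factor that defines endoderm, which read 0, 0, 0.6 and 89.6 RPKM at 0, 12, 24 and 48 h, a log2 change of 5.82. CST1, a secreted cystatin used as an endoderm marker, read 1.6, 4.1, 1.6 and 62.8 RPKM (4.62). CXCR4, the receptor for the chemokine CXCL12 and a surface marker used to sort endoderm, read 3.1, 2.4, 2.8 and 86.0 RPKM (4.52). All 3 were low through 24 h and high at 48 h only. LHX1, a LIM-homeobox factor of the anterior streak and endoderm, was at 0.6, 0.3, 5.7 and 93.7 RPKM (3.82), a rise that had begun by 24 h. PRDM1, a zinc-finger repressor, went from 1.7 to 24.9 RPKM (3.26) and SHISA2, an inhibitor of WNT and FGF receptors, from 7.0 to 55.5 RPKM (2.82). SHISA2 had first gone down, from 36.1 RPKM at 0 h.

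A list of 25 definitive endoderm regulators and markers was chosen with earlier results of these data known, so its counts are a description only. Of these, 20 were listed in the table, 11 were raised, 1 was lowered and the median log2 change was 1.82 (0.97 with a pseudocount of 5). Only genes that reach 4 RPKM at some time are listed. SOX17, CXCR4, PRDM1 and GATA4 reached it at 48 h only, so this filter fixed the direction of their change. Other raised members included the zinc-finger factors GATA4 (1.4 to 14.9 RPKM) and GATA6 (6.1 to 41.1 RPKM), the homeobox factor HHEX (4.3 to 28.1 RPKM) and the receptor KIT (10.6 to 25.4 RPKM). The lowered member was GSC, a homeobox factor of the organizer. Members that were already up at 24 h differed in how far they went on. LHX1, GATA4, GATA6 and HHEX had begun to rise by 24 h and are among the raised genes above, while CER1, EOMES and FOXA2 changed by less than 2-fold. CER1, a secreted inhibitor of NODAL, BMP and WNT, read 1.8, 6.7, 466.7 and 634.0 RPKM, a change of 0.44 in the last step. EOMES, the T-box factor upstream of endoderm, was at 109.3 and then 139.8 RPKM (0.35), and FOXA2, a forkhead factor, at 29.1 and then 40.7 RPKM (0.47).

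The gene CXCR4 lies at chr2:136871919-136876747 of GRCh37 on the minus strand. Its promoter is shown because CXCR4 made one of the largest late rises. RefSeq (GRCh38.p14) places the 300 bases from 250 before to 50 after its first listed start site at chr2:136118100-136118399, minus strand, and capitals mark, on either strand, the GC box GGGCGG, the TATA box written as TATAAA, the TCF and LEF letters CTTTGA and the T-box letters AGGTGTG.
CXCR4: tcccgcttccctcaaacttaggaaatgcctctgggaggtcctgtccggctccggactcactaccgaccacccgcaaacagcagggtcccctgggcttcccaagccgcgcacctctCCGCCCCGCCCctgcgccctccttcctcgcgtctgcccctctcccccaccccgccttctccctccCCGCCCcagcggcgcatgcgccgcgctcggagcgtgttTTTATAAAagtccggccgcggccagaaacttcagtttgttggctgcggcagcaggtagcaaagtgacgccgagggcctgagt
This window holds GGGCGG or its complement 3 times and TATAAA near the start site, and it holds neither CTTTGA nor AGGTGTG. Of the 27305 RefSeq promoters of this length, taking the first start site of each gene, 44.6% held GGGCGG, 11.95% TATAAA, 13.1% CTTTGA and 4.59% AGGTGTG. A match is a description of the letters only. Of the raised genes 72.4% and of the lowered genes 72.4% had a RefSeq promoter in the table, under 80%, so the shares of motifs among them are void and are not given.

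Several listed mesoderm genes were also raised in this step. Of 26 mesoderm regulators and markers 11 were listed, with 7 raised, none lowered and a median change of 2.03 (0.97 with a pseudocount of 5). TBX3, MSX1, MSX2, MESP1 and RUNX1 reached the 4 RPKM needed for listing at 48 h only. The filter thus fixed the direction of their change, and the list's count and median rest partly on it. TBX3, a T-box repressor, was at 0.1 RPKM at 0, 12 and 24 h and at 12.2 RPKM at 48 h (3.58). The homeobox factors MSX1 and MSX2 went from 0.8 to 11.4 RPKM (2.78) and from 0.9 to 13.1 RPKM (2.89). MESP1, a bHLH factor of early mesoderm, was listed at 0 at 24 h and at 4.8 RPKM at 48 h, and RUNX1, a factor of blood formation, went from 0.1 to 5.6 RPKM. APLNR, the apelin receptor of migrating mesendoderm, was at 1.0, 1.9, 11.5 and 50 RPKM and so rose in both later steps. EVX1, a homeobox factor of the posterior streak, was listed at 0, 0.5, 0 and 15.6 RPKM. The list of 21 streak and mesendoderm genes split evenly, with 6 raised, 6 lowered and a median of 0.08. CDX1, a posterior homeobox factor, was raised in it, from 0.9 to 4.1 RPKM, beside TBX6, from 1.7 to 4.6 RPKM. EVX1, CDX1 and TBX6 also reached 4 RPKM at 48 h only, so the filter fixed the direction of their change too.

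EVX1 lies at chr7:27282319-27290112 of GRCh37 on the plus strand. Its RefSeq promoter (GRCh38.p14, chr7:27242552-27242851, plus strand) is shown because EVX1 made one of the largest rises and its window holds 1 match to the T-box letters AGGTGTG, on the other strand, in capitals.
EVX1: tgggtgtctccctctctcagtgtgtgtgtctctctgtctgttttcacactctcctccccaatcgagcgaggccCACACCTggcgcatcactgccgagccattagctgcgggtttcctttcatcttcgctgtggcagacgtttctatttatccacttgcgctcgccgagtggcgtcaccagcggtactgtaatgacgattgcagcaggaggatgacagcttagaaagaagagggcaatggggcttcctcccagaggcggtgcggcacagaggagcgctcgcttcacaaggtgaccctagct
The promoter holds none of the other motifs named above.

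The strongest change in retinoic acid metabolism was CYP26A1, the cytochrome P450 that clears retinoic acid, at chr10:94833232-94837642 of GRCh37. It read 1.1, 1.4, 7.3 and 133.5 RPKM, a log2 change of 4.02. DHRS3, a retinaldehyde reductase, went the other way, with 11.3, 9.7, 5.3 and 0.9 RPKM (-1.73). They were the only members of that list past 2-fold among 14 listed, and the list's median was -0.07.

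Of 19 listed BMP ligands, inhibitors and targets 9 were raised and none lowered, with a median change of 0.86. BMP2, a BMP ligand, went from 3.8 to 28.9 RPKM (2.64). BMP2, MSX1 and MSX2, all on this list, reached the 4 RPKM needed for listing at 48 h only. The filter thus fixed the direction of their change, and the list's count and median rest partly on it. ID1, ID2, ID3 and ID4, inhibitors of bHLH factors and well-known BMP targets, went from 59.6 to 242.2, from 26.8 to 73.1, from 94.4 to 222.5 and from 6.9 to 21.9 RPKM. BAMBI, a pseudoreceptor that dampens BMP signalling, went from 21.6 to 59.6 RPKM and SMAD7, an inhibitory SMAD, from 12.8 to 34.4 RPKM. ID1 and ID3 were near their 0 h levels of 56.5 and 78.2 RPKM at 24 h, so that their gain fell in the later step.

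WNT feedback genes moved in both directions, with 4 raised and 1 lowered of 18 listed and a median of 0.37. DKK1, a secreted inhibitor of LRP5 and LRP6, was at 0.6, 1.1, 14.3 and 69.5 RPKM (2.20), and TCF7, a transcription factor of the pathway, went from 7.3 to 16.5 RPKM (1.08). SP5, a WNT target of the SP family, read 0, 49.8, 90.5 and 135.7 RPKM, and its change of 0.58 lay within 2-fold. AXIN2, a feedback inhibitor, stood at 23.8 and then 22 RPKM. Of 25 listed WNT ligands, receptors and transducers 2 were raised, the receptors FZD5 (37.7 to 86.4 RPKM) and FZD8 (6.9 to 20.4 RPKM), and none were lowered, with a median of 0.17. Among 17 listed SP and KLF genes 1 was raised, KLF8 (4.7 to 13.3 RPKM), and 1 was lowered, KLF15 (12 to 5.3 RPKM), with a median of 0.29.

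The sharpest loss of a WNT gene was DACT1, an inhibitor of Dishevelled, at chr14:59100685-59115039 of GRCh37. It read 19.3, 40.4, 56.3 and 15.5 RPKM, a log2 change of -1.80. Its RefSeq promoter (GRCh38.p14, chr14:58633811-58634110, plus strand) is shown because it holds the TCF and LEF letters CTTTGA, in capitals.
DACT1: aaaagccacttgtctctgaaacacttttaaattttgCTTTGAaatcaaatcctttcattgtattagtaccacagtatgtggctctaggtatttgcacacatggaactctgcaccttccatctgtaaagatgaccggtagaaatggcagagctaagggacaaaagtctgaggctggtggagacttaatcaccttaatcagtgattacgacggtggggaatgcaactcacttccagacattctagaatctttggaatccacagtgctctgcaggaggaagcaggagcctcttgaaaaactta
DACT1 ended below its own 0 h level.

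Several genes of the early response that had climbed through 24 h came down. NODAL, at chr10:72191692-72207707 of GRCh37, read 4.3, 77.1, 159.2 and 56.9 RPKM (-1.47). LEFTY2, a NODAL antagonist and target, read 3.4, 11.8, 37.5 and 6.8 RPKM (-2.30). LEFTY1, the neighbouring antagonist, stood at 34.5 and then 34.3 RPKM and so parted from LEFTY2. In the list of 19 listed NODAL ligands, receptors, effectors and inhibitors, 4 were lowered and 2 raised, and the median was 0.02. Another lowered member was INHBE, an inhibin subunit, from 7.8 to 2.9 RPKM, and besides SMAD7 the protease FURIN was raised, from 14.3 to 30.2 RPKM.

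The NODAL promoter is shown because NODAL is the ligand of that group. RefSeq (GRCh38.p14) places it at chr10:70441632-70441931, minus strand, and it holds GGGCGG 2 times in an overlapping run, in capitals.
NODAL: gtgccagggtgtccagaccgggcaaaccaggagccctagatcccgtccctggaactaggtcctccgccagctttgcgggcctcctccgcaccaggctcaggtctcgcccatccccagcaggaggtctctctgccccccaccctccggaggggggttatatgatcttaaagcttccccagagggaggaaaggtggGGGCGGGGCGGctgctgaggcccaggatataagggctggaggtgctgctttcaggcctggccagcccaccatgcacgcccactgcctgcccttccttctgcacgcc

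Of the streak and mesendoderm list, which split evenly as given above, 3 transcription factors that fell are MIXL1, T and GSC. MIXL1, a homeobox factor of streak and mesendoderm, read 0, 68.6, 271.1 and 76.4 RPKM (-1.81). T, the brachyury gene, read 0.2, 5.8, 21.7 and 10.1 RPKM (-1.03), and GSC read 0.5, 7.3, 57.8 and 27.2 RPKM (-1.06). All 3 were still above their 0 h level at 48 h. FGF4, an FGF ligand, read 1.8, 0.4, 13.3 and 2.3 RPKM (-2.12), and GADD45B, a stress-response gene, went from 19.2 to 6.3 RPKM (-1.47). These belong to the 37 transient genes.

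FGF ligands did not move alike. FGF17 read 0, 0, 29.3 and 142.3 RPKM (2.24), whereas FGF19 fell from 23.5 to 8.3 RPKM (-1.40) and FGF4 fell with it. Of 28 listed FGF genes 5 were raised and 3 lowered, with a median of 0.29. The raised set held FLRT3, an FGF receptor partner (5.6 to 38 RPKM), the receptor FGFR3 (4.7 to 17.2 RPKM), and the feedback inhibitor SPRY4 (50.2 to 115.4 RPKM).

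Pluripotency genes were lower in small steps. Of 27 listed factors and markers 19 had a change below 0, none were raised and 1 was lowered, and the median was -0.30, the lowest of any list. A change below 0 was seen in 5391 of all 10975 genes and in 11 of 15 housekeeping reference genes, so that count does not set the list apart from reference genes. The lowered member was DPPA2, from 8.4 to 2.7 RPKM (-1.35). POU5F1, the factor OCT4, stood at 294.6, 323.7, 300.0 and 243.1 RPKM and SOX2 at 238.3, 212.8, 153.4 and 105.5 RPKM, both within 2-fold in the last step. NANOG was low throughout, at 3.3, 3.1, 5.9 and 3.4 RPKM. LIN28A and DNMT3B, abundant in embryonic stem cells, stood at 934.7 and then 784.7 RPKM and at 286.1 and then 219.2 RPKM. CD24, a surface marker, stood at 1493.7, 1025.5, 707.6 and 524.4 RPKM. The summed level of the list was 6164.4, 5233.5, 4336.9 and 3656.1 RPKM at the 4 times.

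Neural and epiblast regulators had 3 lowered members and none raised among 16 listed (median -0.19). NPTX1 and NPTX2, secreted neuronal pentraxins, went from 2.7 RPKM to a listed 0 and from 7.5 to 1.6 RPKM, and FOXB1, a forkhead factor, from 10.4 to 3.3 RPKM. LECT1, a secreted cartilage glycoprotein also called chondromodulin, declined in both steps, with 102.1, 95.7, 58.2 and 15.3 RPKM (-1.86).

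Genes for matrix, adhesion and cell shape were raised more often than lowered. Of 43 listed extracellular matrix and integrin genes 9 were raised and 3 lowered, with a median of 0.35. HAS2, which makes hyaluronan, read 3.8, 33.9, 54.0 and 309.1 RPKM (2.50), FN1, fibronectin, 16.4, 21.2, 21.8 and 99.8 RPKM (2.14), and ITGA5, a fibronectin receptor subunit, 6.9, 7.0, 11.3 and 31.9 RPKM (1.42). TNC, tenascin C, went from 9.5 to 32.0 RPKM, COL2A1 from 0.9 to 6.5 RPKM and COL4A6 from 1.8 to 6.7 RPKM, while COL14A1 fell from 3.8 to 0.6 RPKM. COL2A1 and COL4A6 reached the 4 RPKM needed for listing at 48 h only, so the filter fixed the direction of their change. The list of 28 genes of epithelial-mesenchymal transition had 5 raised, none lowered and a median of 0.29. The keratins KRT8 (240.9 to 518.3 RPKM) and KRT19 (96.0 to 201.7 RPKM), which mark epithelia, were among the raised genes of that list, as was TAGLN, an actin-binding protein (83.6 to 186.4 RPKM).

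The list of chemokine and apelin receptors and ligands also held CCKBR, which is neither, so its count and median rest partly on that gene. Of its 8 listed members 4 were raised, the other 4 had a change below 0, none were lowered and the median was 0.88. Beside CXCR4 and APLNR the raised members were CXCR7, a second CXCL12 receptor (1.2 to 9.4 RPKM), and CCKBR, the gastrin receptor (2.6 RPKM at 0, 12 and 24 h, then 40 RPKM). Of 37 listed guidance cues and receptors 5 were raised and none lowered (median 0.21), among them SEMA6D (1.0 to 8.1 RPKM), NTN4 (0.7 to 4.0 RPKM), EFNB1 (8.7 to 22.1 RPKM), PLXNA2 (3.7 to 10.2 RPKM) and EPHB3 (2.5 to 6.6 RPKM). SEMA6D, NTN4, PLXNA2 and EPHB3 reached the 4 RPKM needed for listing at 48 h only, as did CXCR4, CXCR7 and CCKBR. The filter thus fixed the direction of their change, and the counts and medians of both lists rest partly on it.

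**Figure D2:**
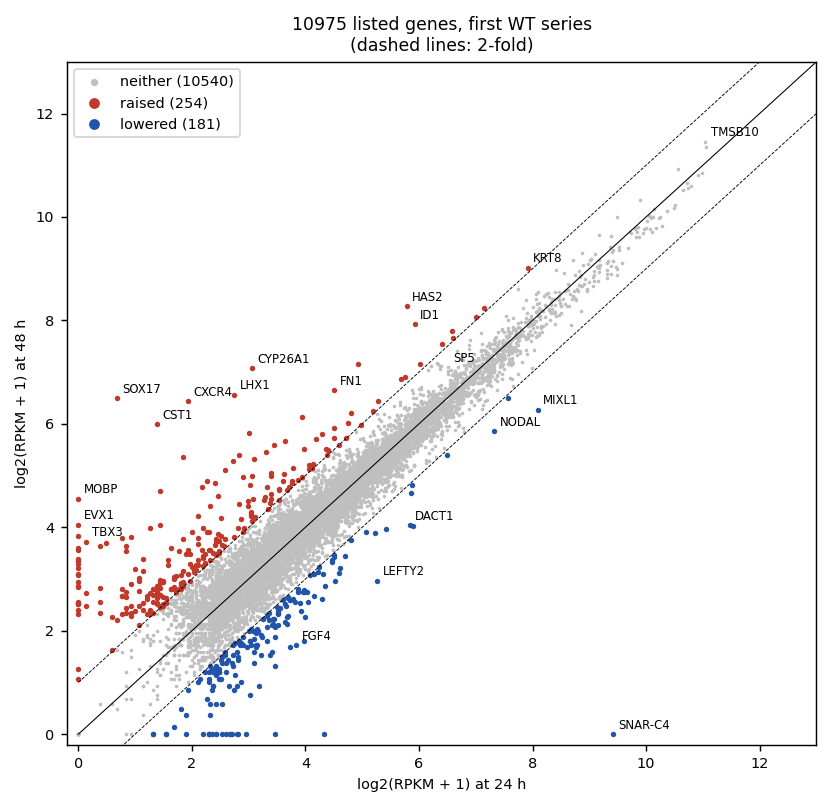
Each point is 1 of 10975 genes, with log2(RPKM + 1) at 24 h on the x axis and at 48 h on the y axis in the first WT series; the dashed lines mark 2-fold. The 254 raised genes (red) and 181 lowered genes (blue) lie mostly at low levels, and SOX17, CST1, CXCR4 and CYP26A1 stand far above the diagonal with log2 changes of 5.82, 4.62, 4.52 and 4.02.

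The 10 largest gains in RPKM took in actin genes, keratins and others, and 3 of the 10, KRT8, HAS2 and ID1, passed 2-fold. TMSB10, a thymosin that binds actin, went from 2105.8 to 2799.1 RPKM, a gain of 693.3 RPKM and a log2 change of 0.41. ACTB and ACTG1, the cytoplasmic actins, stood at 2127.8 and then 2605.3 RPKM and at 1503.5 and then 1948.8 RPKM, and TMSB4X at 954.1 and then 1279.8 RPKM. These 4 genes made the largest gains and lay within 2-fold. GJA1, connexin 43, stood at 720.4 and then 1023.5 RPKM. The keratin gene KRT18 stood at 212.7 and then 389.5 RPKM, and the long noncoding RNA MALAT1 at 577.7 and then 804.1 RPKM.

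Among the 10 largest losses in RPKM were SNAR-C4, 6 ribosomal protein genes, TPT1, HMGA1 and COX7C. SNAR-C4, a short noncoding RNA with many near-identical copies, was listed at 0 at 0, 12 and 48 h and at 684.1 RPKM at 24 h only, so its fall rests on 1 library, and which copy its reads came from is uncertain. TPT1, a translation-associated protein, stood at 1249.8 and then 908.4 RPKM, RPL23 at 1432.6 and then 1158.5 RPKM, and RPS29 at 1153.0 and then 887.8 RPKM. HMGA1, a chromatin protein, stood at 1463.4 and then 1203.3 RPKM, and COX7C, a subunit of cytochrome oxidase, at 764.2 and then 551.0 RPKM. Of 78 listed cytosolic ribosomal protein genes, a list drawn up after values were seen, 62 had a change below 0, 3 were lowered, 1 was raised and the median was -0.20. Their summed level was 33255.5, 33854.7, 32481.7 and 28166.2 RPKM at the 4 times. Of 79 listed oxidative phosphorylation subunits, likewise drawn up after values were seen, 57 had a change below 0, none were lowered, 1 was raised and the median was -0.18, with sums of 10249.2, 10251.1, 10097.4 and 8662.6 RPKM. The raised subunit was ATP5I, at 32.0, 9.0, 4.5 and 23.2 RPKM. Of 15 listed housekeeping reference genes (median -0.13, none past 2-fold) 11 had a change below 0, and of all 10975 genes 5391 did. Medians of the size seen in both lists are thus near that of reference genes.

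Many programmes hardly moved. None of 35 S phase genes passed 2-fold (median -0.12), and of 36 mitosis genes only CEP55 did, from 25.4 to 52.2 RPKM (list median -0.10). Of 25 glycolysis genes 1 was raised, the lactate exporter SLC16A3 (17.3 to 51.0 RPKM), with a median of 0.00332. None of 24 genes of the unfolded protein and amino acid stress response passed 2-fold (median -0.12). Of 24 p53 and apoptosis genes TP53I11 was raised (18.5 to 55.0 RPKM) and GDF15 lowered (5.9 to 0.9 RPKM), with a median of 0.21. Of 18 immediate early genes 2 were lowered, EGR1 (3.4 to 1.1 RPKM) and GADD45B, with a median of 0.02. Of 38 chromatin genes 1 was raised, the histone gene H2AFY2 (30.4 to 62.3 RPKM), with a median of 0.03. Of 15 YAP and TEAD targets TAGLN and ANKRD1, which was listed at 0 until 24 h and at 8.3 RPKM at 48 h, were raised, with a median of 0.05. ANKRD1 passed the listing filter through its 48 h level only.

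**Figure D3:**
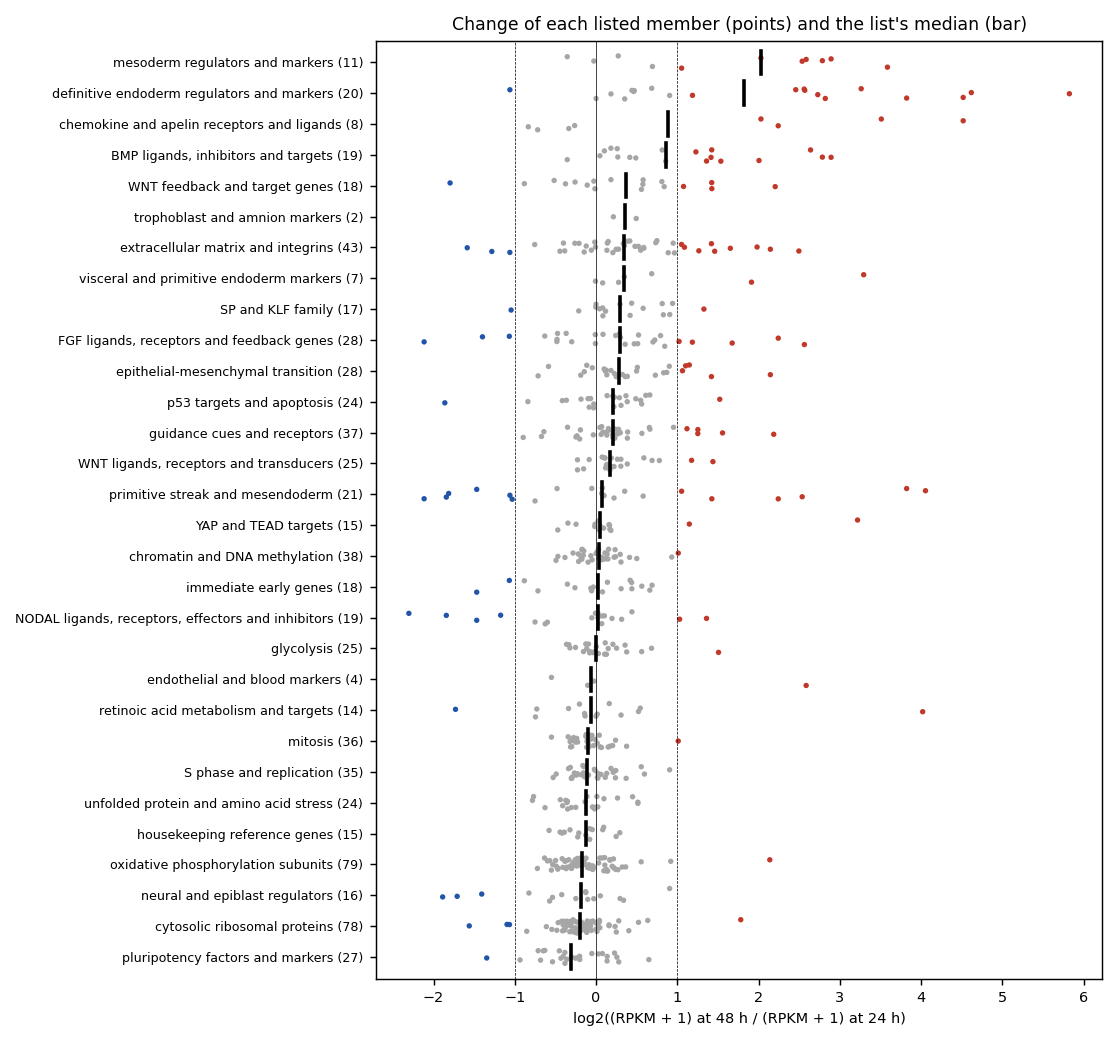
Log2 change from 24 to 48 h of each listed member (points; red raised, blue lowered, grey neither) in 30 gene lists of the first WT series, with a black bar at each list's median and dashed lines at 2-fold. The mesoderm list (median 2.03) and the definitive endoderm list (1.82) stand apart from the rest at the top, and the pluripotency list (-0.30) is at the bottom. Members listed only through their 48 h level could not show a fall, and both top lists are among those that hold such members.

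Markers of other cell types were also read. Visceral and primitive endoderm markers, which definitive endoderm shares in part, had 7 listed members, of which 2 were raised, the apolipoproteins APOA2 (listed at 0 until 24 h, then 8.8 RPKM) and APOA1 (0.7 to 5.4 RPKM), with a median of 0.35. Their summed level went from 146.7 to 199.2 RPKM, and their part in the endoderm gains was not tested. Of 20 trophoblast and amnion markers 2 were listed, TFAP2C and PGF, neither past 2-fold, with a sum of 7.3 and then 10 RPKM. Of 16 endothelial and blood markers 4 were listed, RUNX1 was raised, and KDR and FLT1 stood at 25.8 and then 25.3 RPKM and at 16.4 and then 15.2 RPKM, with a sum of 51.1 and then 51.8 RPKM. The table lists only genes that reach 4 RPKM at some time, and members that it does not list were not analysed here. APOA1, APOA2 and RUNX1 reached 4 RPKM at 48 h only, so this filter fixed the direction of their change.

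Some calls rest on values that can fail. Of the raised genes 22 were listed at 0 at 24 h, and of the lowered genes 23 were listed at 0 at 48 h, and an exact 0 in such a table can be a failed estimate. MOBP, for instance, was listed at 0, 0.2, 0 and 22.5 RPKM. C17orf61-PLSCR3, a read-through gene, was listed at 19.1 RPKM and then 0 while PLSCR3, which it overlaps, was listed at 0 and then 13.2 RPKM, so neither change can be told from a shift of shared reads between them. DYX1C1-CCPG1 is a read-through gene as well, and PRSS2 and PRSS1 (0.7 to 12.9 RPKM) are near-identical copies that were both raised, so their separate levels are uncertain. Among protein-coding genes matched to GENCODE (GRCh37), the median gene length was 20240 bases for 233 raised genes, 15741 bases for 151 lowered genes and 33743 bases for 10093 others.

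The same step could be read in 3 further series for 497 genes that the study had picked for their response to Wnt3a in these cells, of which 108 were raised and 48 lowered in the first WT series. In this second table each gene is given relative to its highest RPKM in WT Rep. 2, and its step was taken as the log2 of (level + 0.05) at 48 h over (level + 0.05) at 24 h. No library is shared among the 4 series, but the genes were picked on WT Wnt3a responses, so their direction in WT Rep. 2 is not independent evidence. In WT Rep. 2, 31.2% of all 497 genes were raised 2-fold and 5.63% lowered, in dZF1 25.4% and 10.1%, and in dZF2 24.7% and 14.5%. Over the whole table the median step was 0.17 for the first WT series and 0.51 for WT Rep. 2, and the clones gave 0.28 (dZF1) and 0.21 (dZF2).

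Most of the 108 genes raised in the first WT series had higher levels at 48 h in the other series too. Their median step was 1.10 for WT Rep. 2, 1.57 for dZF1 and 1.52 for dZF2, with 98, 104 and 105 of 108 higher at 48 h, where 350, 301 and 283 of all 497 genes were higher. At 2-fold 57, 79 and 77 of the 108 were raised. Higher levels at 48 h in all 4 series were seen for 95 of them, and 46 were raised at least 2-fold in each. SOX17 was listed at 0 at 24 h in all 3 further series and at 1.00, 2.88 and 4 of the WT Rep. 2 maximum at 48 h in WT Rep. 2, dZF1 and dZF2. CXCR4 went from 0.05 to 1.00 in WT Rep. 2, from 0.09 to 2.14 in dZF1 and from 0.11 to 1.98 in dZF2, and CYP26A1 from 0.03 to 1.00, from 0.07 to 3.07 and from 0.07 to 2.89. CST1 went from 0.04 to 1.00, from 0.02 to 1.70 and from a listed 0 to 0.71. The late gain of these genes was present in each series, and with 1 library per series and time the sizes were not compared by a test. Where WT Rep. 2 is listed at 0 and then at its maximum, the step comes out at 4.39, which is the most it can show.

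A few genes raised in the first WT series did not rise in WT Rep. 2. ID1 stood at 0.73 and then 0.48 there (step -0.56), ID4 at 1.00 and then 0.35 (-1.39), FGFR3 at 0.83 and then 0.66 (-0.31), TCF7 at 0.95 and then 0.80 (-0.23) and COL2A1 at 0.94 and then 0.65 (-0.50). ID2 and ID3 did rise there, from 0.56 to 1.00 and from 0.40 to 1.00. Of the endoderm list, SOX17, CST1, CXCR4, LHX1, PRDM1, SHISA2, GATA6 and HHEX all had higher levels at 48 h than at 24 h in WT Rep. 2.

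**Figure D4:**
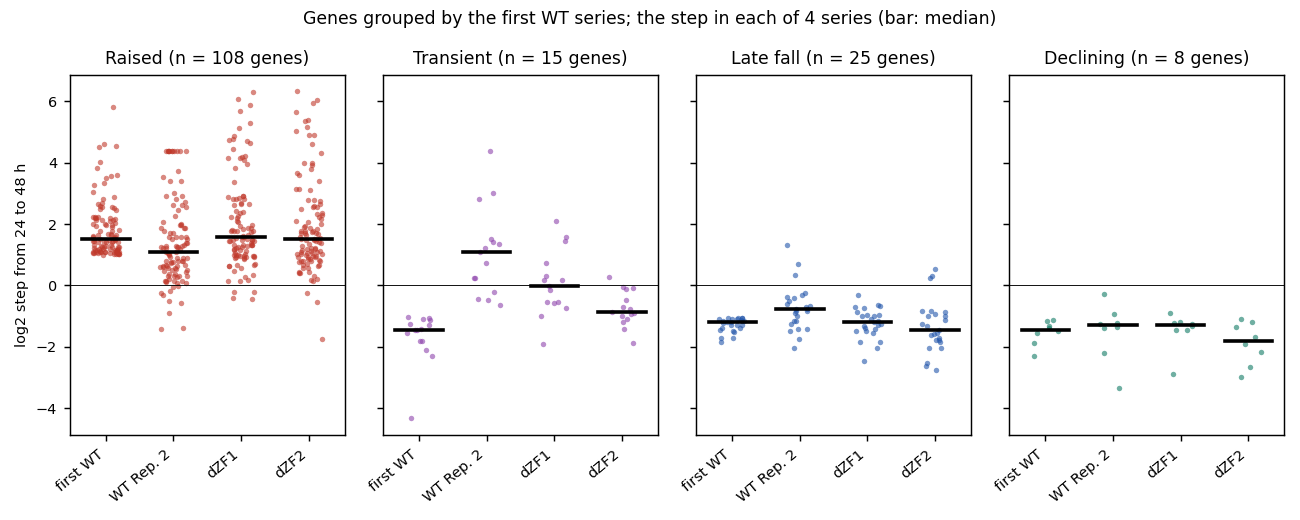
Log2 step from 24 to 48 h (y axis) of each gene (points) in 4 series, for genes grouped by the first WT series as raised, transient, late fall and declining, with a bar at the median. Raised genes have medians of 1.51, 1.10, 1.57 and 1.52, whereas the 15 transient genes have medians of -1.47, 1.10, -0.03 and -0.88.

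The 48 lowered genes were less alike, with medians of -0.62 for WT Rep. 2, -1 for dZF1 and -1.20 for dZF2. In the same order 34, 41 and 44 of 48 were lower at 48 h, where 146, 192 and 214 of all 497 genes were lower. The groups within them parted. The 8 declining genes were lower in all 4 series, with medians of -1.44, -1.29, -1.29 and -1.81, and NPTX1 went from 0.77 to 0.03 in WT Rep. 2. The 25 late falls had medians of -1.19, -0.76, -1.19 and -1.47. DHRS3 (0.85 to 0.17 in WT Rep. 2) and LECT1 (1.00 to 0.42) were lower at 48 h in every series.

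The 15 transient genes that both tables hold did not repeat their fall in WT Rep. 2. Their median step there was 1.10, with 11 of 15 higher at 48 h and 8 raised at least 2-fold. Of all 497 genes there, 350 were higher and 155 raised at least 2-fold, so the count of higher genes was near that share. The median was -0.03 in dZF1, with 8 of 15 lower, and -0.88 in dZF2, with 14 of 15 lower. Among all 497 genes 192 were lower in dZF1 and 214 in dZF2. MIXL1 stood at 0.08 and then 1.00 in WT Rep. 2, at 0.71 and then 1.22 in dZF1, and at 3.27 and then 1.5 in dZF2. NODAL stood at 0.32 and then 1.00 in WT Rep. 2, at 1.46 and then 1.43 in dZF1, and at 3.06 and then 1.64 in dZF2. LEFTY2 stood at 0.36 and then 1.00, at 0.94 and then 0.61, and at 1.00 and then 0.56 in the same order. T, GSC and DACT1 were likewise higher at 48 h in WT Rep. 2, at 1.00 after 0.34, 0.10 and 0.40. FGF4 was lower at 48 h in all 4 series. The transient fall of MIXL1, NODAL, LEFTY2, T, GSC and DACT1 between 24 h and 48 h was thus seen in the first WT series and not in WT Rep. 2.

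As a share of each gene's own highest level in a series, the median of the 15 genes in WT Rep. 2 was 0.22, 0.18, 0.44 and 1 at 0, 12, 24 and 48 h. In the first WT series the medians were 0.09, 0.48, 1 and 0.33. The class was defined on the first WT series, so a peak at 48 h could not occur there, and 14 of its 15 peaks were at 24 h. WT Rep. 2, whose values did not define the class, had 2 at 24 h and 11 at 48 h. The clone dZF1 had 8 and 5, and dZF2 13 and none. SP5 itself stood at 0.09 at 24 h and 1.00 at 48 h in WT Rep. 2, a step of 2.91 against 0.58 in the first WT series. CER1 stood at 0.02 and then 1.00 there, and EOMES at 0.05 and then 1.00. No cause of this difference between the WT series was tested.

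**Figure D5:**
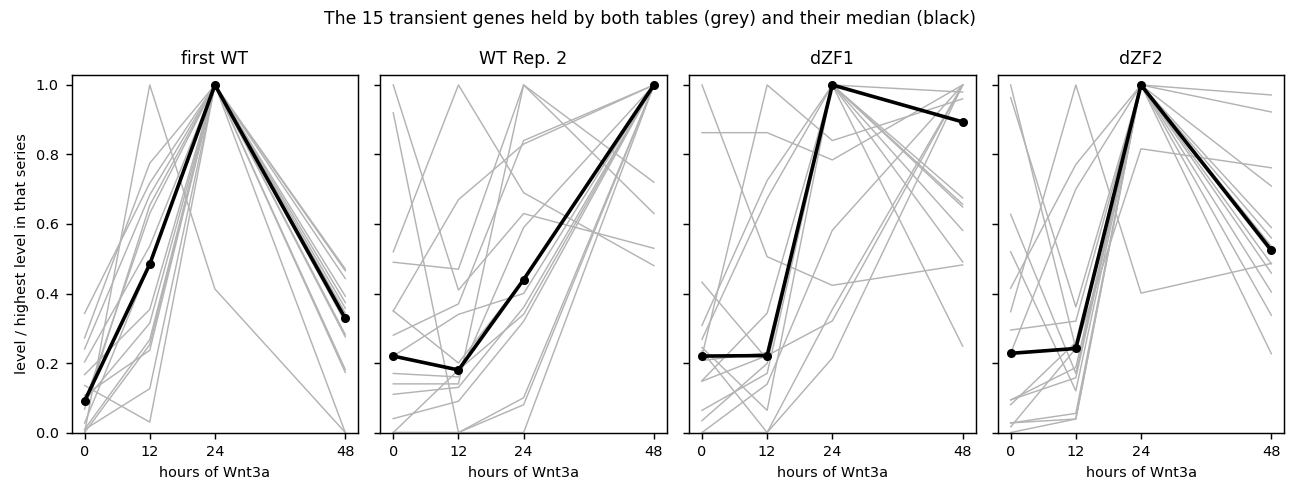
Level of each of the 15 transient genes (grey) as a share of its highest level in that series, against hours of Wnt3a, with the median in black and 1 panel a series. The median peaks at 24 h in the first WT series, whose values defined the class, and in both clones, and at 48 h in WT Rep. 2.

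SP5 binding was set beside the step using peaks that the authors called with a Wnt3a-treated control, in hg19 coordinates. A summit lay within 10000 bases of the start site of 11 of 244 matched raised genes, 4.51% (95% Wilson interval 2.54% to 7.89%), of 3 of 161 lowered genes, 1.86% (0.636% to 5.33%), and of 150 of 10244 other genes, 1.46% (1.25% to 1.72%). These intervals cover counting error only. Within 50000 bases the shares were 7.38%, 8.07% and 4.07% in the same order. With the authors' second list, made with a buffer-treated control, they were 3.69% (9 of 244), 3.73% (6 of 161) and 1.27% (130 of 10244) within 10000 bases, so the order of raised and lowered genes changed with the list and the distance. In the list with the Wnt3a-treated control, the lowered genes with a summit within 10000 bases were MIXL1, HES3 and FGF19. The authors also associate SP5 peaks with the lowered genes NODAL, GSC and T and with the raised genes GATA6 and TBX3. They give a peak called at lower confidence near the raised gene SOX17. The rule used here found none of these in that list. The strongest peak found here was at MIXL1, 152 bases from its start site, with 95 tags and a 24.4-fold enrichment. The peak of HES3, a HES-family repressor that went from 8.3 to 1.9 RPKM, had 65 tags and lay 1687 bases from its start. Both have a false discovery rate of 0%. The third, at FGF19, had 43 tags, a 5.88-fold enrichment and a rate of 11.46%. The raised genes with a peak had 18 to 53 tags and false discovery rates from 9.88% to 49.18%. BHLHE40, a bHLH repressor (3.3 to 11.8 RPKM), had the lowest rate among them, and VENTX, a homeobox factor (3.0 to 14.1 RPKM), and CCKBR were others. Both lists name the same Wnt3a-treated ChIP library in their headers and differ in the control only, and the headers call it h9 where the labels say H1, so the line behind these peaks is uncertain and they give no comparison of binding between 24 h and 48 h.

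The 151 bases centred on the summits of MIXL1, HES3, BHLHE40, VENTX and CCKBR are shown, in hg19 and on the strand of the gene. MIXL1 and HES3 had the strongest peaks of the lowered genes, and BHLHE40 had the most tags of the raised genes. VENTX and CCKBR were picked from the raised genes with weaker peaks, with 38 and 26 tags and false discovery rates of 49.08% and 36.92%. Capitals mark GGGCGG and GGGAGG on either strand, the GC-rich letters that SP factors are known to bind. MIXL1 is read at chr1:226411092-226411242, HES3 at chr1:6305851-6306001, BHLHE40 at chr3:5020320-5020470, VENTX at chr10:135051183-135051333 and CCKBR at chr11:6280390-6280540.
MIXL1: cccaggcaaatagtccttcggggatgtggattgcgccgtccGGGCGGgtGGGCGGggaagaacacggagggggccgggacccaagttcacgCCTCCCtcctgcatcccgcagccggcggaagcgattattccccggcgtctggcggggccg
HES3: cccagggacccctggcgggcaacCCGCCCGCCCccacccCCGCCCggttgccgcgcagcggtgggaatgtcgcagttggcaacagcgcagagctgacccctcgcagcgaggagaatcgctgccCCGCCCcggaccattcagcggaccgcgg
BHLHE40: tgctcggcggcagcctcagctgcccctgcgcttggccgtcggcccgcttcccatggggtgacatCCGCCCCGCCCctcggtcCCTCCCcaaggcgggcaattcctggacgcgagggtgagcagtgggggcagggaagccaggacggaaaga
VENTX: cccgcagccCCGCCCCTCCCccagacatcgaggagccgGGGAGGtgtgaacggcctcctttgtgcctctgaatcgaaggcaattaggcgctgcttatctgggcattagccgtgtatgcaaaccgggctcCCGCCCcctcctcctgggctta
CCKBR: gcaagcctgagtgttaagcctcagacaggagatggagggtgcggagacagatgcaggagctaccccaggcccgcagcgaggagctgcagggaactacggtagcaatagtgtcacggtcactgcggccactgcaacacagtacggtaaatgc
The windows held GGGCGG 2 times at MIXL1, 4 at HES3, 2 at BHLHE40 and 2 at VENTX, counting overlaps, and 0 at CCKBR, which also had no GGGAGG. Over 539 summit windows of the same length in this list, 35.4% held GGGCGG and 42.5% held GGGAGG. CCKBR had one of the largest late rises and neither run of letters in this window, which says nothing of SP5 itself.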

How the data were processed

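RNA-Seq libraries were grouped by the series and hours in the labels. Per the labels, rRNA was removed with Ribo-Zero Gold before NEBNext directional libraries were made. The authors aligned reads to hg19 with TopHat and computed RPKM with Cuffdiff; their versions and annotation are not given in the sources used here. The submitters' processing notes list Bowtie 0.12.7, SAMtools 0.1.12a and MACS 1.4.2. The deposited RPKM values, rounded to 1 decimal, cover genes that reach 4 RPKM at some time. The deposited mutant table holds each value as a fraction of, or a ratio to, the WT Rep. 2 maximum. The other 2 deposited fraction tables repeat the RPKM table and gave no result. Each deposited MACS peak has a tag count, a score made from its p-value, a fold enrichment and a percent false discovery rate. No read counts were given for RNA, so depth and precision per library are unknown.

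Changes were computed in Python 3.11.15 with pandas 2.3.3 and a pseudocount of 1 RPKM (0.05 in the mutant table) and checked on simulated data. Of 10975 genes 97.0% matched a GENCODE release 44 gene. Named were the 15 largest rises and falls, the 10 largest gains and losses in RPKM, from each list the members past 2-fold (the 6 largest of more, the 2 most abundant where fewer than 2), and SP5. Members and the 28 lists were chosen with earlier results of these data known. The groups by earlier course and 2 lists (ribosomal proteins, oxidative phosphorylation) were made after values were seen, out of 22 gene-name patterns looked at. MIXL1, GATA4, GATA6, HHEX, KIT, GSC, T, TBX6, CER1, EOMES, FOXA2, LEFTY1, BHLHE40, VENTX, HES3, SOX2, POU5F1, NANOG, ID2, ID3, AXIN2, PRSS1 and LECT1 fall outside the naming rule and were picked after values were seen. Some results were left out and are not reported here.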

Additional observations from a re-analysis of the deposited data

How the results depend on the processing

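The count of raised genes went from 254 to 99 with a pseudocount of 5 and to 138 with only genes of at least 10 RPKM in 1 of the libraries, and that of lowered genes from 181 to 38 and 67. The construction of both settings gives low genes less weight or drops them. Pseudocounts of 0.1 and 0.5, equal library totals, centring and leaving out genes at 0 kept both counts within 1.5 times. With a pseudocount of 5 the median change was 0.97 for the definitive endoderm list and 0.97 for the mesoderm list, and the other 118 of the values for 30 lists and 4 settings moved by less than 0.45, the median SD between both WT series, which was chosen as the tolerance after values were seen. In place of WT Rep. 2 the median step of raised genes was 1.57 in dZF1 and that of lowered genes -1.20 in dZF2, and the cause was not tested. The median step of the transient genes, whose alternatives were added once values were known, reversed from 1.10 in WT Rep. 2 to -0.029 in dZF1 and -0.88 in dZF2 (the cause was not tested). Within 50000 bases 8.07% of lowered genes had an SP5 peak. Of the 152 genes named by the rule or in the text 70 moved by at least the tolerance under some setting. These settings could not change the sign of a gene past 2-fold. Another pseudocount keeps the sign of a change, and equal library totals shift it by at most 0.028 log2. No replicate could be left out, with 1 library a side. No paired analysis was possible because no test was made with 1 library a side, and the step within each WT series was set side by side for 497 genes instead.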
